A study of Ciona robusta with 12 samples.

Results

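The question was whether the transcriptional effect of U0126 on whole embryos of the tunicate Ciona robusta changed between the 64-cell and the 112-cell stage. All 12 libraries of the series entered, since the difference between the stages needs all 4 groups. These were embryos in 4 mM U0126 collected at 112 cells, their DMSO controls at 112 cells, embryos in 4 mM U0126 collected at 64 cells, and their DMSO controls at 64 cells, with 3 libraries in each group. Per the labels, both treatments began at the 32-cell stage in dechorionated embryos kept at 21 °C, the controls received the carrier at 1:1000, and each library came from the pooled RNA of 300 embryos. All 4 groups thus share dechorionation, the strain or origin of the animals is not labelled, and the dose of 4 mM is given as labelled. The embryos were whole, so fewer cells of a type and less RNA per cell cannot be told apart.

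U0126 inhibits the kinase MEK, which activates ERK at the end of the signalling cascade that FGF receptors start. In ascidian embryos FGF signals act on cells as they divide, and ERK activity is known to decide between notochord and neural fates and between neural and epidermal fates at these stages. An inhibitor present from the 32-cell stage can therefore act on genes already transcribed at 64 cells and on genes first transcribed later, and a drop in transcript can be seen only where transcript is made in the controls.

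The recovered libraries held 10623872 to 15956670 reads over 15284 gene models, of which 13115 to 13857 had at least 1 read in a library. The gene models carry KH2012 identifiers, and 0 of them matched the RefSeq gene table used here, so genes are given by identifier and no role is assigned to any of them. On the first principal component DMSO replicate 3 at 112 cells stood at 69.7, beyond the other 112-cell libraries at 23.0 to 45.1, and the counts of calls for U0126 are given below with and without it. Levels are normalized counts, that is reads divided by a size factor computed over all 12 libraries, and CPM are counts scaled to the total reads of a library. The design text calls the replicates biological but names no clutch or day, so p-values refer to these libraries only. Those of the main fit measure the spread left after differences shared by libraries of a replicate number are fitted. Stage coincides with the deposited table and cannot be told apart from anything else that differed between the stages' libraries.

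The effect of U0126 differed between the stages in 31 of 11650 genes (0.266% of those tested), and in 30 of the 31 it was more negative at 112 cells (0.258%). The difference is the log2 fold change of U0126 over DMSO at 112 cells minus that at 64 cells, fitted with limma on log2(normalized count + 1) with the replicate number as a block. Calls were made at an adjusted p (Benjamini-Hochberg) under 0.05 over all genes tested. Among the 30 the difference ran from -6.08 to -1.06 with a median of -2.66, and 21 of them reached 4-fold. The median over all genes tested was -0.01, and 50.6% of all genes had a negative estimate. In all 30 genes the 3 ratios of U0126 to DMSO within a replicate number lay lower at 112 cells than any of the 3 at 64 cells, an ordering that 8.17% of all genes tested had. The ratios are those from which the genes were called, so the ordering describes the call and does not add to it. All 30 were also lower with U0126 at 112 cells, where 253 genes were called in the same fit (2.17%), 174 lower (1.49%) and 79 higher (0.678%). At 64 cells the fit called 5 genes (0.0429%), 4 lower (0.0343%) and 1 higher (0.00858%). These splits depended on the libraries and the tool: without DMSO replicate 3 at 112 cells it was 210 lower and 180 higher at 112 cells, and 36 lower and 39 higher at 64 cells. DESeq2 called 245 lower and 201 higher at 112 cells, and 21 lower and 25 higher at 64 cells. The 112-cell comparison and the difference share their libraries, so the members' calls at 112 cells are not separate support for the difference.

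**Figure D1:**
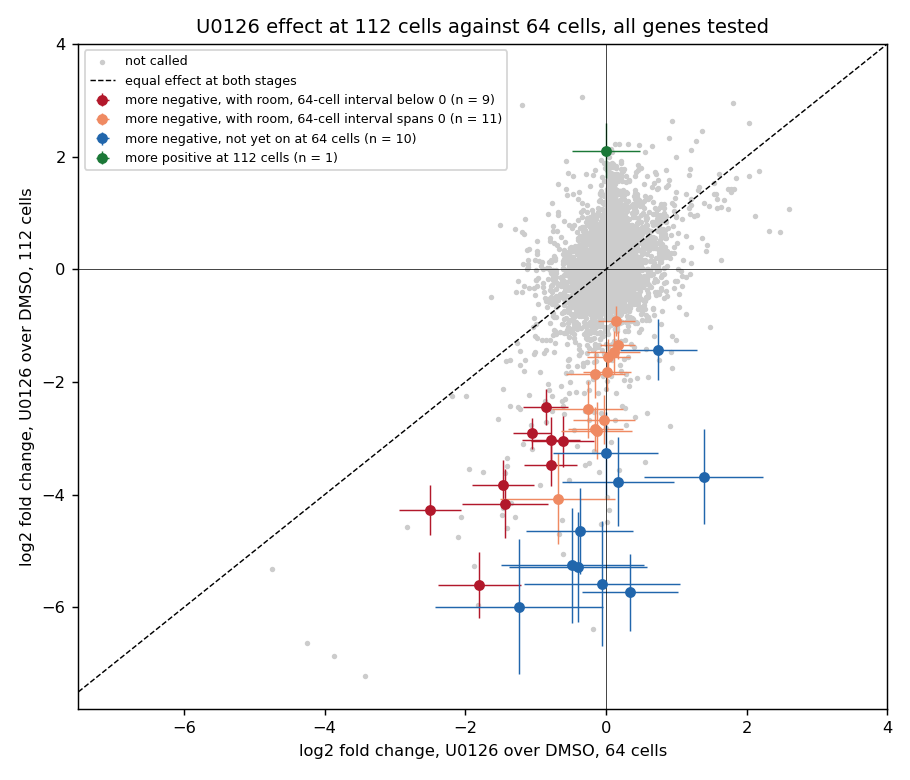
Log2 fold change of U0126 over DMSO at 112 cells (vertical) against 64 cells (horizontal) for all 11650 genes tested, with bars for the 95% intervals of the 31 genes called for the difference. The called genes lie off the dashed line of equal effect, 30 of them below it and 1 above it.

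A gene with few reads in DMSO embryos at 64 cells leaves little fall to measure there, so the genes were divided by their mean level in those controls at 2 CPM. Genes at or above it are called genes with room, and genes under it genes not yet on, although some reads were counted for most called genes of that class. Of the genes at or above 2 CPM, 21 of 9764 were called for the difference (0.215%), 20 more negative (0.205%) and 1 more positive (0.0102%). Of the genes under it, 10 of 1886 were called (0.53%), all more negative at 112 cells. The nearest called genes on each side stood at 2.58 CPM, with a difference of -3.38, and at 1.35 CPM, with a difference of -4.75. The DMSO libraries at 64 cells that make this division also enter the contrast, so both counts are descriptions. In the 20 genes with room, a fall to 0 counts at 64 cells would have been a log2 change of -5.12 or more negative. In none of the 20 was the fall at 112 cells beyond that value of its own gene. A count of 0 allows 3 reads, or 2.94 to 3.13 normalized counts in U0126 libraries at 64 cells, which leaves less fall to measure. The called gene at 2.58 CPM had a mean of 33.8 normalized counts in DMSO embryos at 64 cells and a log2 fold change of -4.07 at 112 cells. An equal fall from that mean would end under 3 reads, so not all 20 could have shown one at 64 cells. The other falls were not compared with that limit.

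**Figure D2:**
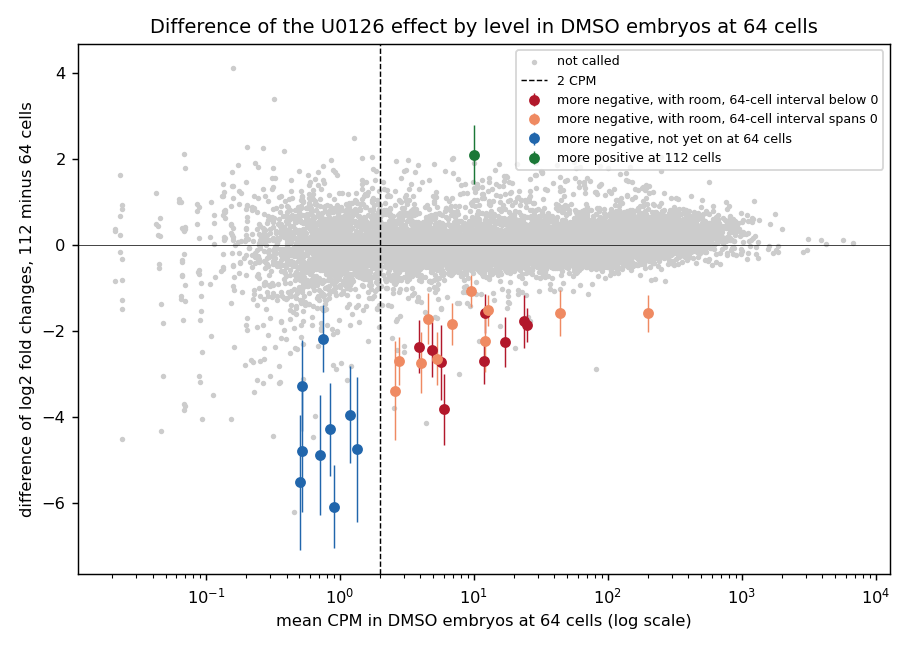
Difference of the log2 fold changes (112 minus 64 cells, vertical) against the mean CPM in DMSO embryos at 64 cells on a log axis, with 95% intervals for called genes. The dashed line marks 2 CPM, with 9 of the 10 called genes under it drawn and 21 at or above it. Genes with no read in those controls, KH.S1090.3 among them, are not drawn.

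In 9 of the 20 genes with room the 95% interval of the 64-cell effect already lay below zero, against 0.83% of all genes with room. In these 9 the fall was deeper at 112 cells. Their log2 fold changes were -5.61 to -2.45 at 112 cells, with a median of -3.47, and -2.50 to -0.62 at 64 cells, with a median of -1.05. The level left in U0126 embryos was a median of 9.13% of the DMSO mean at 112 cells and 48.0% at 64 cells. This division rests on intervals that are not adjusted for the number of genes tested, and 2 of the 9 were called at 64 cells. The libraries behind the intervals also enter the difference, so the division is a description.

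KH.C12.211, the gene with room that had the smallest p, had 29.5, 20.9 and 50.7 normalized counts in U0126 embryos at 112 cells (replicates 1, 2 and 3), against 394, 265 and 448 in DMSO embryos. The 64-cell libraries had 82.6, 73.0 and 113 in U0126 embryos, against 181, 105 and 187 in DMSO embryos. Every U0126 library at 112 cells was thus below every other library, while at 64 cells the highest U0126 library was above the lowest DMSO library. U0126 over DMSO stood at a log2 value of -3.47 at 112 cells and -0.79 at 64 cells, each with an SE of 0.17, and the difference of -2.69 (SE 0.24, 95% interval -3.22 to -2.15) had a limma adjusted p of 0.00424. Without the block the limma adjusted p was 0.102, and over 27 alternatives, other tools included, the adjusted p ran from 5.31e-16 to 0.424. Between the stages it rose in DMSO embryos (log2 change 1.24) and fell in U0126 embryos (log2 change -1.45).

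KH.C11.328 was called lower at both stages and for the difference. Its U0126 libraries had 187, 166 and 187 normalized counts at 112 cells, against 1376, 1468 and 1231 in DMSO embryos. At 64 cells they had 176, 149 and 145, against 321, 371 and 289 in DMSO embryos. The U0126 and DMSO libraries did not overlap at either stage, and the U0126 libraries of both stages lay within 145 to 187. The log2 fold change was -2.91 (SE 0.12, limma adjusted p = 1.21e-05) at 112 cells and -1.05 (SE 0.12, limma adjusted p = 0.0221) at 64 cells, and the difference was -1.86 (SE 0.17, limma adjusted p = 0.00424). For the difference the adjusted p ran from 5.31e-16 to 0.313 over 27 alternatives, other tools included.

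In the other 11 genes with room the interval of the 64-cell effect included zero. Their log2 fold changes were -4.07 to -0.91 at 112 cells, with a median of -1.86, and -0.69 to 0.17 at 64 cells, with a median of -0.03. The lower ends of the 64-cell intervals ran from -1.50 to -0.08. These intervals are not adjusted for the number of genes tested, and the genes were chosen by the same libraries. They therefore set no firm bound on a fall that went unseen. U0126 embryos kept a median of 27.5% of the DMSO mean at 112 cells and 94.4% at 64 cells.

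KH.C1.98 was the gene of these 11 with the smallest p. It had 33.7, 29.3 and 28.2 normalized counts in U0126 embryos at 112 cells, against 223, 255 and 195 in DMSO embryos. The 64-cell values were 37.8, 30.2 and 29.4 in U0126 embryos, against 45.8, 29.4 and 34.4 in DMSO embryos. The treated libraries of both stages and the controls at 64 cells thus shared one narrow range, and the DMSO libraries at 112 cells stood far above it. U0126 over DMSO stood at a log2 value of -2.84 (SE 0.17) at 112 cells and -0.15 (SE 0.17, 95% interval -0.54 to 0.24) at 64 cells. The difference was -2.69 (SE 0.25, limma adjusted p = 0.00424). Its adjusted p ran from 1.08e-10 to 0.322 over 27 alternatives, other tools included.

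**Figure D3:**
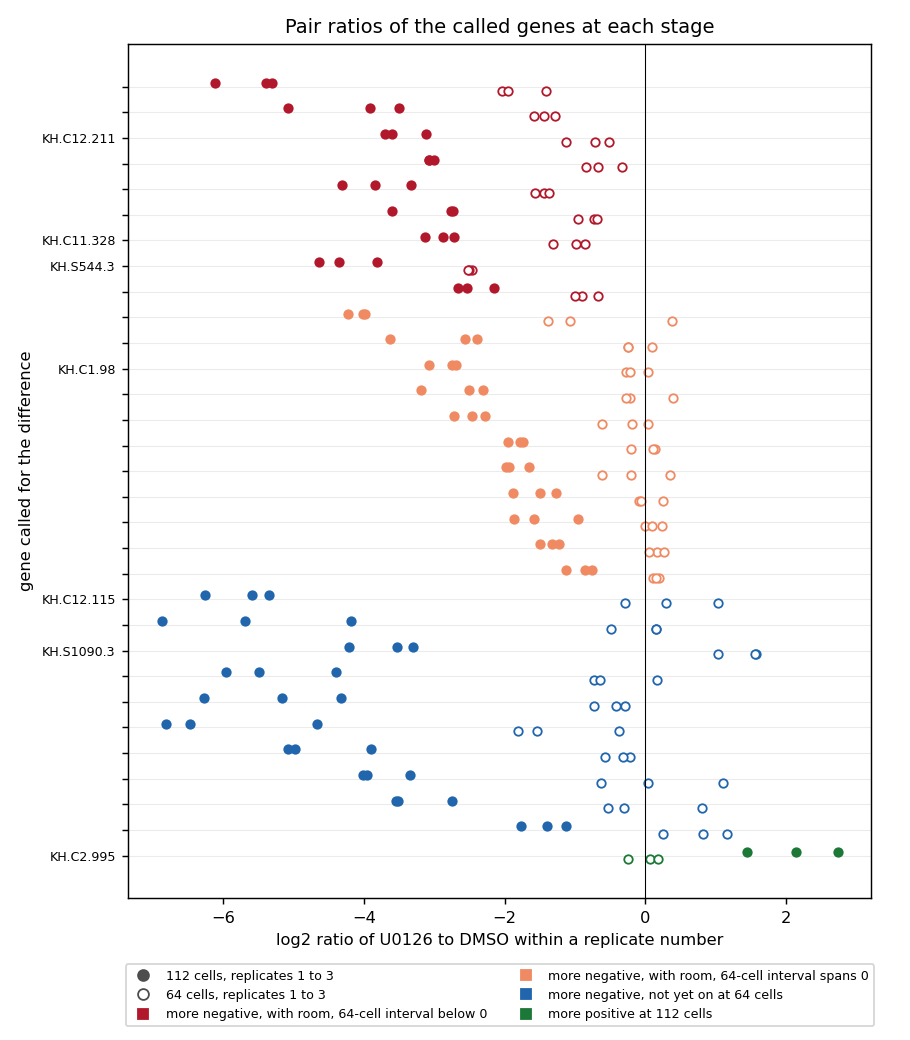
Log2 ratio of U0126 to DMSO within each replicate number for the 31 called genes, 1 gene per row, with filled points for 112 cells and open points for 64 cells. In the 30 upper rows all 3 filled points lie left of all 3 open points, and in the lowest row, KH.C2.995, they lie right of them.

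Seen as a change over time, the 20 genes with room all rose between the stages in DMSO embryos, by log2 changes of 0.77 to 4.08 with a median of 1.99, where 5.89% of all genes with room rose. In U0126 embryos 1 of the 20 rose, 3 fell and 16 did not pass the test, and the median log2 change was -0.07. Of all genes with room 4.92% rose and 8.07% fell between the stages in U0126 embryos. These are the same 12 libraries and the same contrast in another order, so the stage changes are not separate support for the difference.

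The 10 genes not yet on at 64 cells had means of 0 to 1.35 CPM in DMSO embryos there. Their levels were 1.43 to 24.8 normalized counts in U0126 embryos at 112 cells, against 30.2 to 534 in DMSO embryos. At 64 cells they were 1.67 to 17.9 in U0126 embryos, against 0 to 17.8 in DMSO embryos. All 10 rose between the stages in DMSO embryos. They were chosen by low levels in DMSO embryos at 64 cells. Of the 10, 3 met the filter only through the 3 DMSO libraries at 112 cells. Both choices favour a rise in DMSO embryos, also among all genes not yet on, so the rise is a description. In U0126 embryos limma called 0 of the 10 in either direction, also with 0 at an unadjusted p under 0.05, and no other tool was run for this change. Of all genes not yet on, 30.6% rose in DMSO embryos, and in U0126 embryos 25.9% rose and 0.371% fell. In 8 of the 10 the fall at 112 cells was larger than a loss of all transcript could have been at 64 cells, so an equal fall could not have been measured there. The 95% interval of the 64-cell effect lay above zero in 2 of the 10, against 4.40% of all genes not yet on, and included it in 7. Of these 2, KH.S1090.3 had under 3 reads in every library at 64 cells, so its interval there measures no effect. The interval lay below zero in 1, against 2.86%. The 1 was KH.C2.866, singled out after its values were seen, with means of 6.72 normalized counts in U0126 embryos and 17.8 in DMSO embryos at 64 cells and a log2 fold change of -1.24 there (95% interval -2.44 to -0.04). The median difference was -4.76, or -4.51 when the gene whose DMSO libraries at 64 cells held 0 reads was given a floor of 3 reads in each.

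KH.C12.115 had 11.6, 3.13 and 15.8 normalized counts in U0126 embryos at 112 cells, against 604, 316 and 683 in DMSO embryos. At 64 cells it had 9.95, 10.4 and 23.5 in U0126 embryos, against 12.3, 4.60 and 18.9 in DMSO embryos. In all 4 groups replicate 3 was the highest, and in 3 of them replicate 2 was the lowest. The log2 fold change at 112 cells was -5.73 (SE 0.30), and the difference was -6.08 (SE 0.43, limma adjusted p = 0.00163). That difference ran from -6.47 to -2.54 over 27 alternatives, other tools included, with an adjusted p of 4.98e-25 to 0.305. The fall at 64 cells could not have exceeded a log2 value of -3.69.

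KH.S1090.3 was the called gene with 0 reads in all libraries of a group. It had 2, 1 and 1 reads in the U0126 libraries at 112 cells, against 35, 22 and 34 reads in the DMSO libraries, and 2, 1 and 2 reads in U0126 libraries at 64 cells, against 0 in all 3 DMSO libraries. Both treatments were under the floor of 3 reads at 64 cells, which allows up to 0.190 to 0.214 CPM in a DMSO library with no read, so no fold is given there. Its fitted difference of -5.07 (limma adjusted p = 0.00647) depends on the pseudocount, ran from -8.14 to -0.60 over 20 alternatives and is no bound. The gene met the filter only through the 3 DMSO libraries at 112 cells, which also enter the difference, so its call is a description.

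The U0126 effect was more positive at 112 cells in a single called gene, KH.C2.995 (0.00858% of the genes tested). It had 1269, 1010 and 1780 normalized counts in U0126 embryos at 112 cells, against 288, 368 and 266 in DMSO embryos. Its 64-cell values were 110, 132 and 153 in U0126 embryos, against 105, 157 and 135 in DMSO embryos. The groups did not overlap at 112 cells and overlapped at 64 cells. U0126 over DMSO stood at a log2 value of 2.11 (SE 0.21) at 112 cells and 0.00 (SE 0.21, 95% interval -0.48 to 0.49) at 64 cells. The difference was 2.11 (SE 0.30, limma adjusted p = 0.0291). It rose between the stages in both treatments, by a log2 change of 3.32 in U0126 embryos and 1.22 in DMSO embryos. The call rested on few libraries: leaving out any 64-cell library, DMSO replicate 1 at 112 cells, or U0126 replicate 1 or 3 at 112 cells lost it. The limma adjusted p ran from 0.000269 to 0.150 over the 12 fits without 1 library, while the difference stayed between 1.89 and 2.39. With a block for each pair within a stage the limma adjusted p was 0.0889, within a range of 3.97e-07 to 0.608 over 27 alternatives.

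The 5 genes called at 64 cells show how an early effect stood at 112 cells. KH.S544.3 had 44.3, 32.4 and 37.2 normalized counts in U0126 embryos at 112 cells, against 925, 831 and 537 in DMSO embryos, and at 64 cells 52.7, 52.2 and 57.9 in U0126 embryos, against 296, 302 and 335 in DMSO embryos. Its log2 fold change was -4.27 at 112 cells and -2.50 at 64 cells, each with an SE of 0.20, and the difference of -1.77 (SE 0.28) had a limma adjusted p of 0.0454. This call was lost in every fit that left out 1 library other than DMSO replicate 3 at 112 cells (limma adjusted p up to 0.173), where it was 4.40e-05. It was also lost without the block (0.0659), and over 27 alternatives the adjusted p ran from 4.40e-05 to 0.662. DMSO replicate 3 was the lowest of its group at 112 cells. KH.C11.328, described above, was the other of the 5 that was called for the difference.

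KH.C11.577 (limma adjusted p = 0.00207) and KH.L128.12 (limma adjusted p = 0.00578) were called lower at 64 cells, and their falls were not called as different between the stages. KH.C11.577 had 14.8, 13.6 and 15.8 normalized counts in U0126 embryos at 112 cells, against 1536, 1401 and 1729 in DMSO embryos. At 64 cells it had 9.95, 19.8 and 8.83 in U0126 embryos, against 139, 386 and 279 in DMSO embryos. Treated embryos held about the same low level at both stages while the controls were higher at 112 cells. Its difference was -2.38 (SE 0.46, 95% interval -3.42 to -1.35, limma adjusted p = 0.105, or 0.000168 to 0.765 over 27 alternatives), and the adjusted p was 0.0116 without DMSO replicate 3 at 112 cells.

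KH.L128.12 had 13.7, 10.4 and 4.51 normalized counts in U0126 embryos at 112 cells, against 397, 358 and 407 in DMSO embryos. At 64 cells it had 4.97, 5.22 and 6.87 in U0126 embryos, against 87.3, 260 and 244 in DMSO embryos. The U0126 libraries lay far below the DMSO libraries at both stages. U0126 over DMSO stood at a log2 value of -5.31 at 112 cells and -4.75 at 64 cells, each with an SE of 0.45. The difference of -0.57 had a 95% interval of -2.01 to 0.88 (limma adjusted p = 0.729), so the effects were not shown to differ. The interval reaches a deepening of about 4-fold and a lessening of under 2-fold.

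KH.L50.6 was called higher at 64 cells. It had 1111, 1121 and 1162 normalized counts in U0126 embryos at 112 cells, against 661, 723 and 734 in DMSO embryos. Its 64-cell libraries had 132, 199 and 210 in U0126 embryos, against 19.4, 46.0 and 46.4 in DMSO embryos. The groups did not overlap at either stage. Its log2 fold change was 0.68 (SE 0.22, limma adjusted p = 0.212) at 112 cells and 2.32 (SE 0.22, limma adjusted p = 0.00578) at 64 cells. Without U0126 replicate 1, 2 or 3 at 64 cells limma called 0 genes higher there, so the 64-cell call was lost in each of these fits. The difference of -1.64 (SE 0.31, 95% interval -2.34 to -0.93) missed the threshold, with a limma adjusted p of 0.101, or 0.00320 without DMSO replicate 3 at 112 cells and 0.000202 to 0.662 over 27 alternatives.

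**Figure D4:**
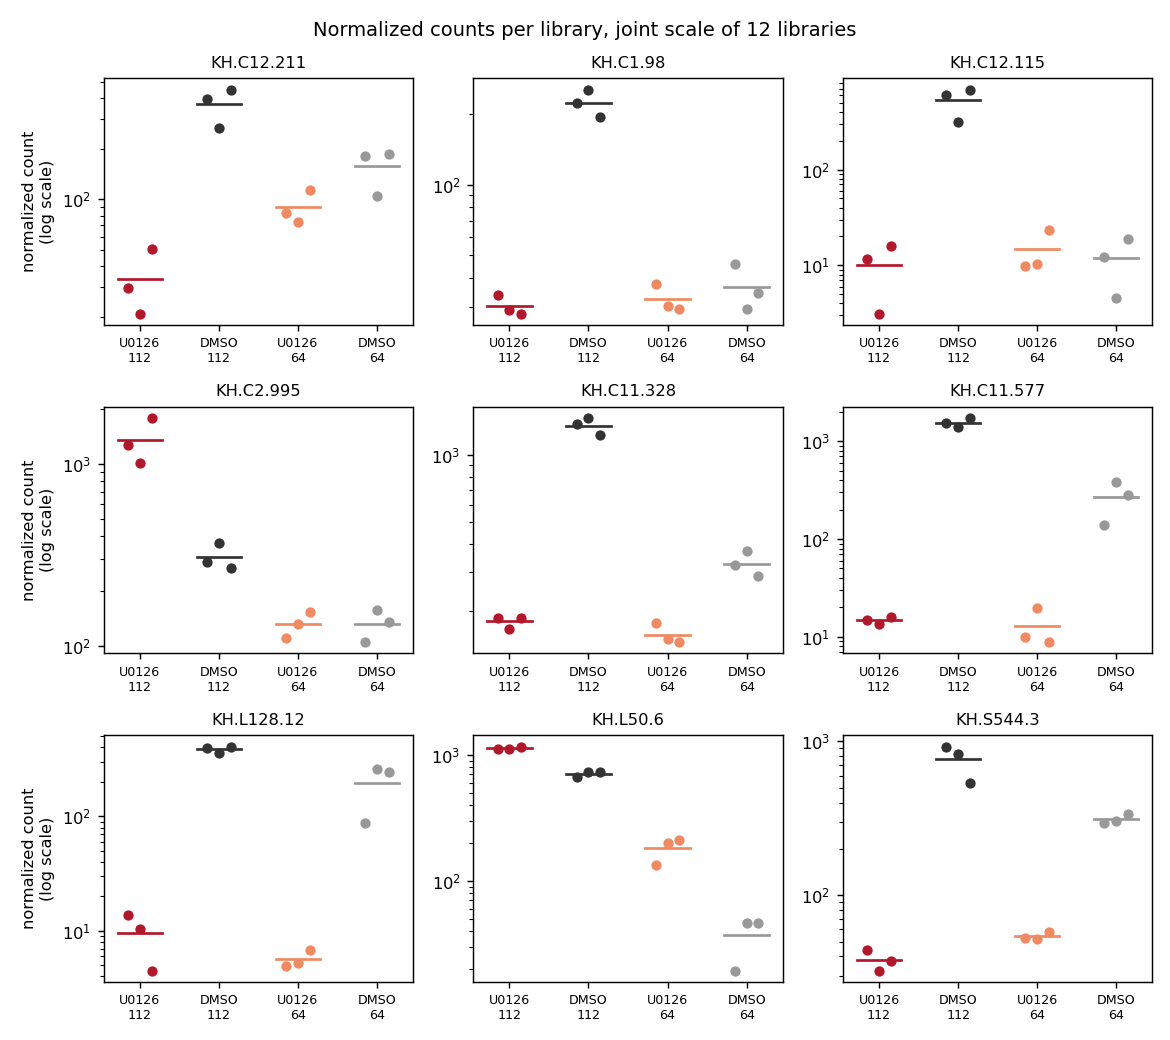
Normalized counts on the joint scale (log axis) of 9 named genes in every library, with points for replicates 1 to 3 from left to right and a bar for the group mean. In KH.C1.98 and KH.C12.115 the DMSO libraries at 112 cells stand apart from the other 3 groups, and in KH.C2.995 the U0126 libraries at 112 cells do.

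With all libraries most genes called at 112 cells were not called for the difference. Of the 99 genes with room that were lower with U0126 at 112 cells (1.01%), 20 were called for it and 79 were not. In these 79 the log2 fold change had a median of -1.19 at 112 cells and -0.20 at 64 cells, and 66 had a negative estimate at 64 cells (83.5%, against 43.8% of all genes with room). The difference itself was negative in all 79, with a median of -1.02, and its 95% interval lay below zero in 72 of them, against 1.94% of all genes with room. They were chosen by the 112-cell libraries that enter the difference, which pulls the estimate that way, so these counts are a description. In 13 of the 79 the interval of the difference lay within 1 log2 unit of zero, that is within 2-fold either way, against 73.7% of all genes with room. Without DMSO replicate 3 at 112 cells 162 genes with room were lower at 112 cells, and 87 of them were called for the difference, so there it was the larger share. Of the other 75, 63 had a negative estimate at 64 cells, 58 an interval of the difference below zero, and 45 an interval within 1 log2 unit of zero.

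Among genes not yet on at 64 cells 75 were lower with U0126 at 112 cells (3.98%), and 65 of them were not called for the difference. Their median log2 fold change was -2.76 at 112 cells and -0.38 at 64 cells. In 33 of them the fall was beyond what 64 cells could show, against 2.97% of all genes not yet on. These genes, and those called higher below, were chosen by 112-cell libraries that enter the difference, so the counts are descriptions. Of the genes called higher at 112 cells, 53 had room (0.543%) and 26 were not yet on (1.38%), with 1 of the 53 and 0 of the 26 called for the difference by limma. At an unadjusted limma p under 0.05 it was 13 of the 26, all positive, against 2.70% positive among all genes not yet on. The other tools were not counted for these 26. Of the 52 with room and no call for the difference, 52 had a positive estimate at 64 cells, with medians of 0.97 at 112 cells and 0.26 at 64 cells. In 22 of the 52 the interval of the difference lay within 1 log2 unit of zero, against 73.7% of all genes with room. Of all genes with room 43.8% had a negative estimate at 64 cells. Without DMSO replicate 3 at 112 cells, 140 genes with room were called higher, 18 of them for the difference, and in 94 of the other 122 the interval lay within 1 log2 unit of zero. Of these 122, 116 had a positive estimate at 64 cells. Among genes not yet on that fit called 48 lower and 40 higher, with 19 of the 48 and 5 of the 40 called for the difference. The 5 genes that came next by p had limma adjusted p-values of 0.0547 to 0.0560 for the difference, 4 of them negative and 1 positive.

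The number of genes called depended on the libraries used. Without DMSO replicate 3 at 112 cells, the library that stood apart, the difference was called in 135 genes (109 negative, 26 positive), and 111 of the 135 had room. These included 28 of the 31 genes, all that could be tested, since the other 3 met the filter of 3 libraries only through the 3 DMSO libraries at 112 cells. With any of the other 11 libraries left out 10 to 22 genes were called, of which 9 to 20 were among the 31. By replicate number 1, 2 and 3, the count was 18, 22 and 18 without a U0126 library at 112 cells, 16, 10 and 17 without a U0126 library at 64 cells, and 16, 15 and 17 without a DMSO library at 64 cells. It was 16 and 21 without DMSO replicate 1 and 2 at 112 cells. Of the genes with room 8 to 17 were called in these 11 fits. In each of the 12 fits most calls were more negative at 112 cells. Of the 31 genes, 8 kept their call in every fit without 1 library that tested them, 6 of them with room, among them KH.C12.211, KH.C11.328 and KH.C1.98. KH.C12.115 and KH.S1090.3 were the other 2, though KH.S1090.3 was tested in 9 of the 12 fits. Without the block 18 genes were called, all among the 31, and 10 of them had room. With a block for each pair within a stage 28 were called, of which 22 were among the 31. The 253 calls at 112 cells became 390 without DMSO replicate 3, 157 and 135 without DMSO replicate 1 and 2, and 136, 157 and 128 without U0126 replicate 1, 2 and 3, each at 112 cells. The 5 calls at 64 cells became 75 without DMSO replicate 3 at 112 cells, 9 and 10 without U0126 replicate 2 and 3 at 112 cells, 2, 3 and 2 without U0126 replicate 1, 2 and 3 at 64 cells, and 9 without DMSO replicate 2 at 64 cells.

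**Figure D5:**
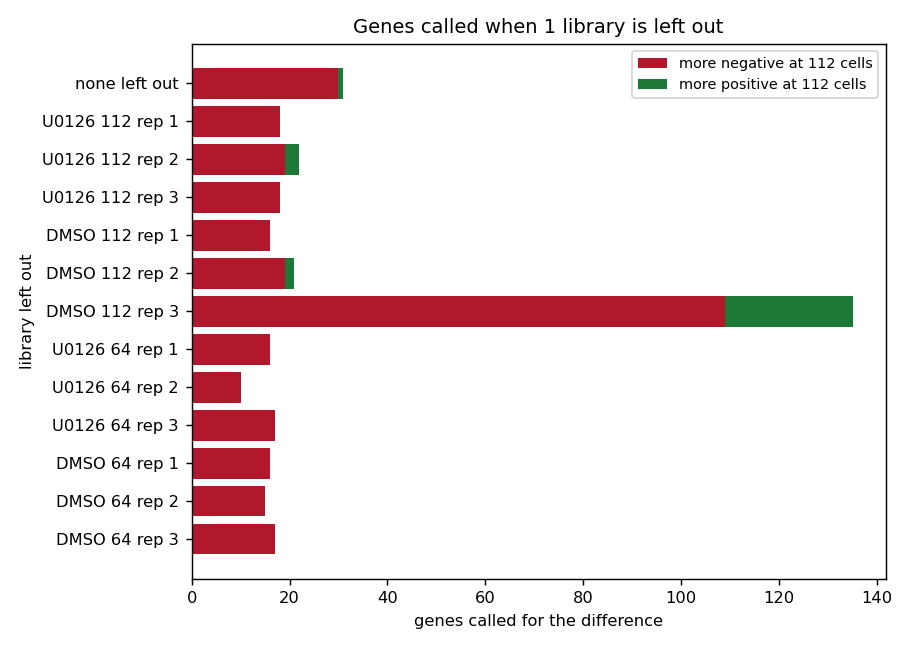
Number of genes called for the difference (horizontal) when no library or 1 library is left out (vertical), with red for genes more negative and green for genes more positive at 112 cells. The bar without DMSO replicate 3 at 112 cells reaches 135 genes, against 31 with all libraries and 10 to 22 without any other library.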

How the data were processed

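The members and tests were chosen with earlier results of these data known. For each stage the authors deposited, per the file headers, normalized read counts (a signal per gene and library) and regularized log2 values. TopHat2 2.9.8b and DESeq 1.8.1 are named, per the submitters' processing notes. The sources used here give no read counter, strand setting, genome build or filter, so overlapping, antisense and near-identical genes are uncertain.

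All values were whole multiples of their library's smallest (100%, tolerance 0.01), so whole reads were recovered, joined on the gene identifier and rescaled together by median-of-ratios factors. Genes with at least 10 in at least 3 of the 12 libraries were fitted with limma 3.58.1 in R 4.3.3 (variance trend, pseudocount 1), with a coefficient per group and the replicate number as a block. Fold changes on this scale understate changes of low genes. The numbers were taken to pair libraries: deviations from group means correlated at 0.380 to 0.833 for same-number pairs of different groups and -0.527 to -0.034 for others. Deviations cancel out within a group, so the negative range follows from the positive one and is not separate support for the pairing. What libraries of a number share is not labelled. The chi-square of reads per gene between replicates was 18.8 to 128, so none was a duplicate. DMSO replicate 3 at 112 cells gave 128 and 107 against replicates 1 and 2 of its group, and no other pair was above 35.7.

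edgeR 4.0.16 and DESeq2 1.42.0 ran on the recovered reads as alternatives, and the fit was tested on simulated data. A count of 0 allows 3 reads, for counting error only. The rule for naming covered every gene called for the difference, the 5 next by p, genes called at 112 cells without a called difference, and all called at 64 cells. It was narrowed after the values were seen, because 0 of 15284 identifiers matched a gene name. Named are the 2 with the smallest p called more negative with room, likewise the 2 not yet on, all called more positive, all called at 64 cells and any with 0 reads in a group, and the rest are given as counts and ranges. The pathway and marker lists set for the study could not be matched, so no list result or marker check is given.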

Additional observations from a re-analysis of the deposited data

Results flagged for a closer look

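The difference of the U0126 effect between 112 and 64 cells was called in 7 named genes, with limma adjusted p-values of 0.00163 to 0.0454. Its size was -2.69 (log2) for KH.C12.211, -2.69 for KH.C1.98, -1.86 for KH.C11.328 and -1.77 for KH.S544.3, all with room to fall at 64 cells. It was -6.08 for KH.C12.115, which was under 2 CPM in DMSO embryos there, and 2.11 for KH.C2.995. The fitted value of -5.07 for KH.S1090.3 is no measure of size, since both treatments had under 3 reads at 64 cells. It ran from -8.14 to -0.60 over 20 alternatives. That gene met the filter only through the 3 DMSO libraries at 112 cells, where it was high, so its call is a description.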

How the results depend on the processing

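Depth leaves no fold for KH.S1090.3 at 64 cells, with under 3 reads in each library there. Of the 31, 3 met the filter only through the 3 DMSO libraries at 112 cells and could not be tested without one of them. Counts follow as difference, U0126 at 112 cells, U0126 at 64 cells and difference with room, with 31, 253, 5 and 21 in the main analysis, and a setting is named for a count that moved by over 1.5 times. Without the replicate block they were 18, 116, 5 and 10. A block within each stage gave 28 for the difference, 22 of them among the 31. DESeq2 gave 91, 446, 46 and 71, a pseudocount of 8 gave 77, 330, 8 and 39, and edgeR gave 8 at 64 cells. The authors' regularized log2 values, an alternative chosen after seeing the data, gave 136, 459 (241 lower, 218 higher), 1 (0 lower, 1 higher) and 60. With them none of the genes called lower at 64 cells in the main fit was called lower there. The counts by room without DMSO replicate 3 at 112 cells were also added after seeing the data. Without 1 library the counts ran 10 to 135, 128 to 390, 2 to 75 and 8 to 111, and without a replicate number in all 4 groups 0 to 103, 23 to 326 (55 without replicate 1), 0 to 56 and 0 to 85. Without replicate 1 or 2 in all 4 groups limma called 0 genes for the difference, with 273 and 338 at an unadjusted p under 0.05, and edgeR and DESeq2 were not run on these subsets. The difference of KH.L128.12, not called, ran from -1.05 to 0.019 without 1 library, the last reversed, without DMSO replicate 1 at 64 cells. In the 31 called genes no alternative that tested them reversed the direction (815 fits of a gene). The cause of these changes was not tested.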
